A study of Mus musculus with 81 samples.

Results

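Sprr1a, Sprr2g, Lce1g, Tgm1, Mylk2, H19, Mmp3 and Pou4f3 are genes of epidermis, embryonic tissue, striated muscle, inner ear or injured nerve that had few or no reads in mouse hippocampal area CA1 with a control virus and many after depletion of the histone variant macroH2A1 (mH2A1, gene H2afy) with a short hairpin RNA (shRNA). They were chosen by that contrast, as 8 of the 55536 genes in the depletion count table, so their levels with the scrambled (shScr) and the H2afy hairpin (shH2afy) are a description and carry no test. The rule asked for genes near 0 in shScr without a numeric limit, and Tgm1 had the highest shScr mean of the 8, at 0.376 CPM (counts of a gene per M counts of the library, after scaling of library sizes). The rule did not use the H2afy2 hairpin (shH2afy2, against mH2A2, compared with the same shScr mice), fear conditioning, mice without virus, or the domains of mH2A1 and mH2A2 at the gene starts.

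The series held 81 samples of male C57BL/6J mice, 26 of RNA and 55 of chromatin immunoprecipitation (ChIP) and input. In the depletion experiment, the dorsal CA1 of both hemispheres received an AAV-DJ virus with a U6-driven hairpin and a CMV-driven GFP, and the GFP-positive tissue gave 3 shScr, 3 shH2afy and 3 shH2afy2 libraries of mice that were not trained. In the training experiment, mice with shScr or shH2afy were untrained or had contextual fear conditioning 1 h before tissue was taken, with 3 libraries in each of the 4 groups, and intact mice without virus gave 3 untrained and 2 trained libraries. ChIP was done only in mice without virus, 30 min (mH2A1 and mH2A2 of the same mice, 3 untrained and 2 trained), 1 h (mH2A1 of 2 and 2, mH2A2 of 3 and 3) or 6 h after training (mH2A1 of 5 and 5), and yielded 30 domain lists, 16 of them from untrained mice. The labels give each RNA library its own mouse and give no age. The U6 promoter is active in most cell types, the methods give a single hairpin sequence for each gene, and the titres of the shH2afy and shH2afy2 viruses differed. The paper reports another set of hairpins against both genes, with knockdown checked in dorsal CA1, for a repeat of an object memory test. It does not say that this set was used for RNA sequencing.

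The skin barrier is built late in the life of a keratinocyte, when precursor proteins are joined into a cornified envelope beneath the cell membrane. Small proline-rich proteins (Sprr) and late cornified envelope proteins (Lce) are such precursors, their genes stand side by side with that of loricrin in the epidermal differentiation complex, and transglutaminase 1, the product of Tgm1, cross-links them. Outside skin, Sprr1a is known as a gene of injured peripheral neurons, Mmp3 (stromelysin) degrades extracellular matrix, Mylk2 phosphorylates myosin light chains in skeletal muscle, H19 is a maternally expressed imprinted RNA of the embryo, and Pou4f3 is a transcription factor of inner ear hair cells. MacroH2A variants carry a large non-histone domain and lie in broad chromatin domains, many of them over silent genes.

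The starts of 4 of these genes are shown because they bear on the domains described further on and differ in their motifs. Each line is the 250 bases before the RefSeq start (GRCm38.p6), written 5′ to 3′ on the gene's strand, with capitals for a match to TGANTCA, the motif of AP-1 transcription factors, or to TATAAA.
Sprr1a: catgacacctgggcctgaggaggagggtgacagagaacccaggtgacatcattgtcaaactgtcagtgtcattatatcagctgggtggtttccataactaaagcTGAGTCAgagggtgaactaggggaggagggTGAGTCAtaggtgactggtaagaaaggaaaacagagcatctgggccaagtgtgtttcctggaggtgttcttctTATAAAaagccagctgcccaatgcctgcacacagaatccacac
Lce1g: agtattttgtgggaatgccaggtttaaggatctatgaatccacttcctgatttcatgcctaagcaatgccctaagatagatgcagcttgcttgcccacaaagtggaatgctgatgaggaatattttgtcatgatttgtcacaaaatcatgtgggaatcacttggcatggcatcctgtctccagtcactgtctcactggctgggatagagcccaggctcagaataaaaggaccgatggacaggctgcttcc
Tgm1: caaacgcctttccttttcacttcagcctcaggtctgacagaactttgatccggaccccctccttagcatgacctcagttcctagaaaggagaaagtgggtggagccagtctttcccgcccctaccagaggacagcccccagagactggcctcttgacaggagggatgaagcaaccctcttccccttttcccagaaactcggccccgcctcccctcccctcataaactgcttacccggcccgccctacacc
Mmp3: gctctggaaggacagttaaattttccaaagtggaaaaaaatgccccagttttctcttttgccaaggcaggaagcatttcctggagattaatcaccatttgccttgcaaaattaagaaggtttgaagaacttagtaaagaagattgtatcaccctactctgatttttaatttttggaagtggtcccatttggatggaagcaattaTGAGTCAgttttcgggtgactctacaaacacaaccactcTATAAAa
These are chr3:92485882-92486131 (minus strand) for Sprr1a, chr3:92752339-92752588 (minus strand) for Lce1g, chr14:55713493-55713742 (minus strand, 1 of 2 RefSeq entries of Tgm1, and inside the longer gene of the annotation used below) and chr9:7445572-7445821 (plus strand) for Mmp3. The Sprr1a sequence held TGAGTCA from -146 to -140 and from -116 to -110, counted back from the start, and TATAAA from -43 to -38. The Mmp3 sequence held TGAGTCA from -46 to -40 and TATAAA from -7 to -2. Neither set of letters, on either strand, was in the Lce1g or Tgm1 window. Among 32851 mouse promoters of this length, 6.75% held TGANTCA (which reads the same on both strands, and whose matches do not overlap TATAAA), 12.4% TATAAA and 1.21% both. These matches are descriptions of the letters and not of binding. No promoter of Sprr2g, Mylk2 or H19 is shown.

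Library totals ran from 9.95 to 18.8 M counts in the depletion experiment, from 81.4 to 92.2 M in the training experiment and from 48.6 to 58.5 M in intact mice. H2afy itself stood at 60.6, 59.2 and 50.6 CPM in the shScr libraries and at 43.5, 44.5 and 38.7 with shH2afy, with no overlap. In the training experiment, whose reads were counted over introns too, the same gene (Macroh2a1 there) went against the label, with 81.7, 82.5 and 79.2 CPM in untrained shScr mice and 87.0, 87.7 and 87.7 in those labelled shH2afy. Every direction given for the training experiment therefore rests on libraries labelled shH2afy whose target RNA was not lower. The levels of the 2 experiments were not compared. They were pooled only in the correlations given below, as deviations from the mean of each group.

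Positions are those of the mouse build mm10. Of the structural proteins of the cornified envelope, Sprr1a (chr3:92483952-92485895, minus strand) had 0, 0 and 1 counts in the 3 shScr mice and 82, 65 and 75 in the 3 shH2afy mice. Its level with shH2afy was 4.78 CPM ± 0.973 (SD, n = 3), which over the group is 189 times that in shScr, with a 95% interval from counting alone of 33.6 to 7500. Sprr2g (chr3:92373915-92375229, plus strand), annotated as a polymorphic pseudogene, had no count in shScr and 83, 111 and 59 with shH2afy. It reached 5.31 CPM ± 1.16 (SD, n = 3), at least 71.8-fold higher than a floor of 3 counts over the shScr group. Lce1g (chr3:92750148-92752338, minus strand) had 0, 0 and 1 counts against 71, 82 and 49. Its level of 4.27 CPM ± 0.799 (SD, n = 3) was 172 times that in shScr (30.5 to 6830). In each of these genes the lowest shH2afy mouse had many more counts than the highest shScr mouse. The Sprr2 and Lce1 families hold near-identical copies, so reads of Sprr2g and Lce1g may in part belong to relatives.

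The cross-linking enzyme had reads in every mouse. Tgm1 (chr14:55700009-55713926, minus strand) had 11, 1 and 3 counts in shScr mice and 949, 960 and 557 in shH2afy mice. These are 0.759, 0.0633 and 0.306 CPM against 64.1, 54.5 and 38.1 CPM, so that all shH2afy mice lay far above all shScr mice. The ratio of the groups was 140 (84.7 to 251). The fitted log2 fold change, 7.15, was 8.30 without shScr replicate 1 and 6.48 without shScr replicate 2, the mouse with 1 count.

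Among the genes of other tissues, Mylk2 (chr2:152911352-152923068, plus strand) had 0, 0 and 2 counts in shScr mice and 143, 165 and 262 with shH2afy, a ratio of 243 (66.9 to 2010). Its CPM with shH2afy was 9.66, 9.36 and 17.9, highest in replicate 3. H19 (chr7:142575529-142578143, minus strand), a long non-coding RNA, had 1, 0 and 1 counts against 234, 206 and 97, a ratio of 229 (63.0 to 1890). Its CPM with shH2afy was 15.8, 11.7 and 6.63, lowest in replicate 3, the mouse in which Mylk2 was highest. Mmp3 (chr9:7445822-7455975, plus strand) had no count in shScr mice and 21, 55 and 24 with shH2afy, at least 28.4-fold above the floor. Pou4f3, on chromosome 18, had 0, 0 and 1 counts against 38, 25 and 29, a ratio of 78.3 (13.7 to 3130). The level with shH2afy was 2.06 CPM ± 0.925 for Mmp3 and 1.99 CPM ± 0.575 for Pou4f3 (SD, n = 3 each). The shScr counts of Sprr1a, Lce1g, Mylk2 and Pou4f3 all came from replicate 3, so that without it no shScr count was left for them. In that library T and NK cell genes summed to 24.7 CPM against 3.45 and 2.66 in the other shScr mice. Neutrophil and monocyte genes summed to 3.06 CPM against 0.552 and 0.633. Reactive astrocyte genes (440 against 781 and 375) and microglial genes (389 against 506 and 323) lay between the other mice. B and plasma cell genes were lowest there (9.5 against 10.9 and 27.9). The part of these cells in the counts was not tested.

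**Figure D1:**
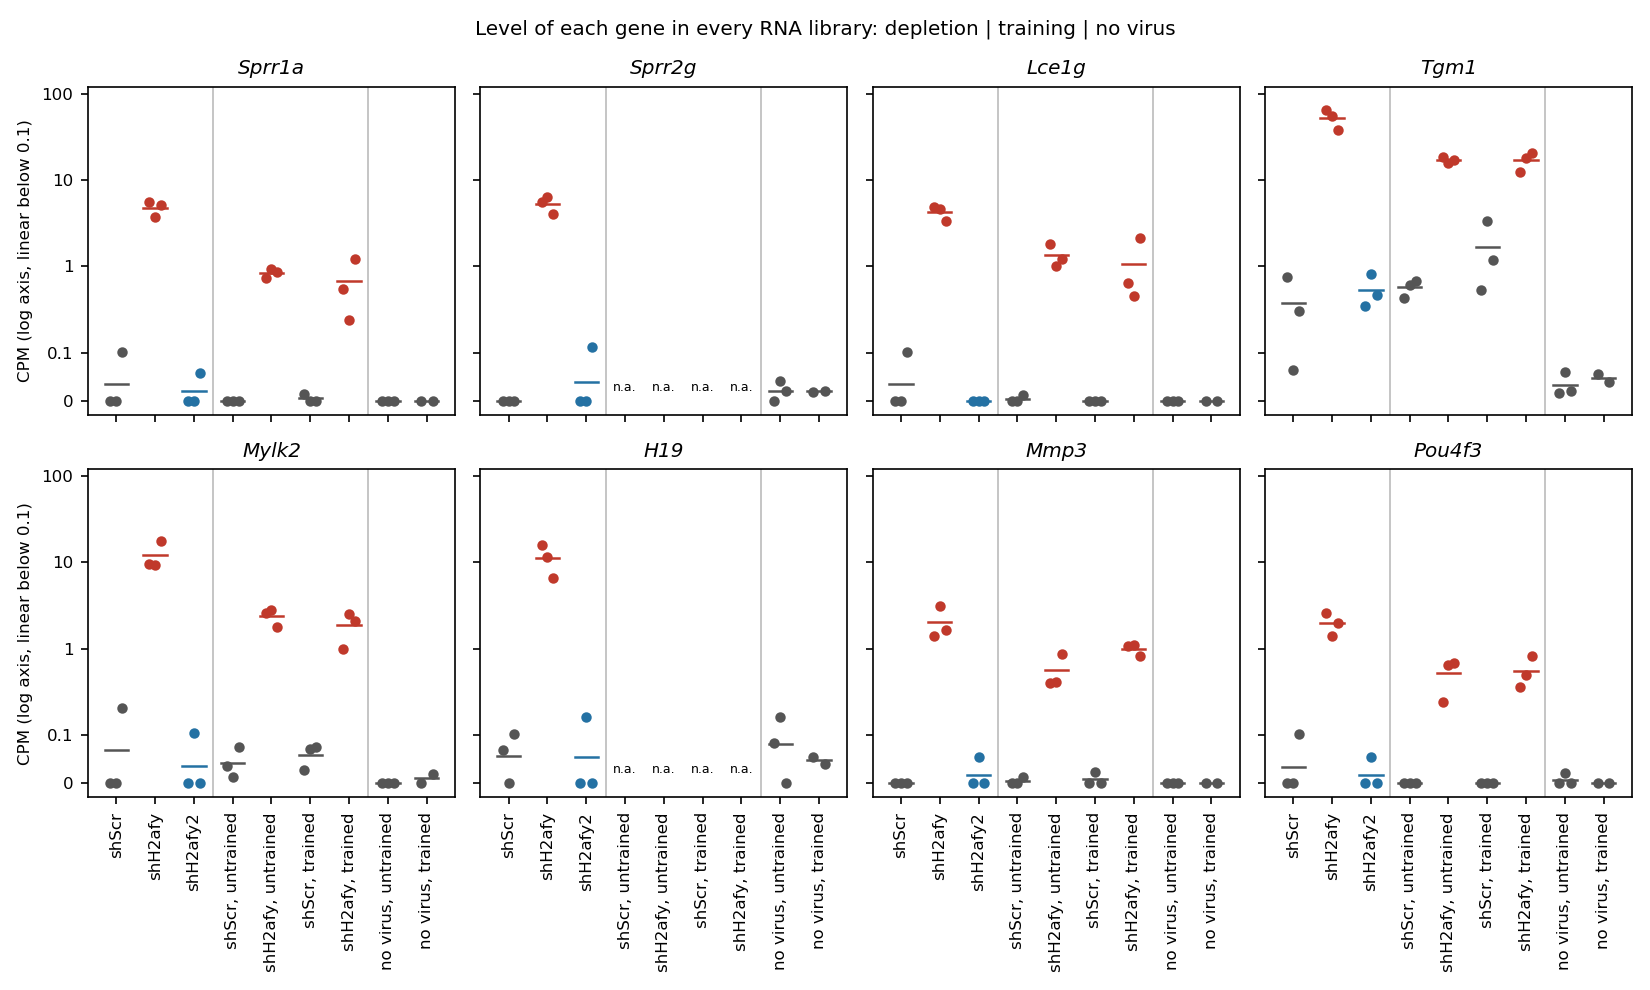
CPM of each gene in every RNA library (log axis, linear below 0.1), with shScr and virus-free mice in grey, shH2afy in red and shH2afy2 in blue. Points are libraries, horizontal lines are group means, and n.a. marks genes not analysed in the training experiment. The red points lie above the others of the same experiment in every panel, for Tgm1 between 38.1 and 64.1 CPM against 0.0633 to 0.805 in the depletion experiment.

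Divided by exon length, so that genes can be compared, the shH2afy levels of the 8 were those of low to well expressed genes. Tgm1 had 16.5 CPM per kb ± 4.17 (SD, n = 3), above 81.7% of the 16173 tested genes with a known exon length, whose median was 4.84 CPM per kb. Sprr2g had 8.16 ± 1.78 and Sprr1a 5.94 ± 1.21 CPM per kb, both above that median. H19 (4.62 ± 1.87), Lce1g (4.61 ± 0.863) and Mylk2 (4.17 ± 1.64) lay just below it, and their SDs overlapped each other and Sprr1a. Mmp3 (1.14 ± 0.514) and Pou4f3 (0.83 ± 0.24) stood above only 20.2% and 15.6% of these genes. The order of Mmp3 and Pou4f3 was within their spread, whereas Tgm1 lay above the range of the other 7 in every shH2afy mouse.

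All 8 met the thresholds for a gene called higher with shH2afy (adjusted p under 0.01 and fold above 2 in edgeR), where 10.5% of the 16179 genes tested did so and 1.2% were called lower. The contrast is the one that chose them, and nothing is read from the count. It was 7 of 8 without shH2afy replicate 1 or without shScr replicate 2, each time without Mmp3. Of the 39235 genes with a mean under 0.5 CPM in shScr, 563 passed the filter on low counts and 359 of these (63.8%) were called higher. A gene this low could pass that filter only through the group in which it was high, so the percentage does not measure how often silent genes rose.

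RNA of other cell types moved with the same contrast. Of 20 reactive astrocyte genes tested, 19 were higher with shH2afy, such as Lcn2, a secreted iron-carrier protein (log2 fold change 10.35, SE 0.387), and the list summed to 6630, 6290 and 5040 CPM against 781, 375 and 440 CPM in shScr mice. Microglia and macrophage genes, 19 of 20 higher, summed to 5500, 6870 and 2450 CPM against 506, 323 and 389. Neutrophil and monocyte genes summed to 72.2, 110.0 and 25.3 CPM against 0.552, 0.633 and 3.06, and B and plasma cell genes to 1460, 1970 and 32.7 against 10.9, 27.9 and 9.5. Genes of CA1 pyramidal neurons summed to 2460, 2650 and 4400 CPM against 8280, 6350 and 5300, and 2 of 11 were called lower. Replicate 3 with shH2afy thus had the least glial and immune RNA of its group. In that mouse H19, Tgm1, Sprr2g and Lce1g were at their lowest and Mylk2 at its highest, while Sprr1a, Mmp3 and Pou4f3 lay between the other 2 mice. In bulk tissue, fewer cells of a type and less RNA per cell cannot be told apart, and the part of these cell types in the levels of the 8 genes was not tested.

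The rest of the cornification programme was measured with a list of 48 genes of epidermal differentiation, which includes Sprr1a, Sprr2g and Lce1g. No count was found for 29 of them in either shScr or shH2afy libraries. Only 6 passed the filter, and 4 of these were higher with shH2afy, the 3 members and Lce1f (log2 fold change 7.31, SE 0.806), another late envelope gene. The 3 members were chosen by this contrast, and all 4 genes could pass the filter only through the shH2afy group. Nothing is read from the count of 4 of 6. Summed over the 3 mice of each group, Lce1f had 0 counts in shScr, 63 with shH2afy and 0 with shH2afy2. Lce1i had 5, 41 and 1, Crct1 0, 16 and 0, and Lce1a2 0, 9 and 0 counts. Genes of the main structural proteins of skin were either read in all groups or barely in any. Loricrin (Lor) had 550, 450 and 683 counts, trichohyalin (Tchh) 311, 522 and 386, involucrin (Ivl) 1, 2 and 0, and filaggrin (Flg) 2, 1 and 1. Genes with at least 10 counts in a group numbered 2 in shScr, 8 in shH2afy and 2 in shH2afy2 mice.

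**Figure D2:**
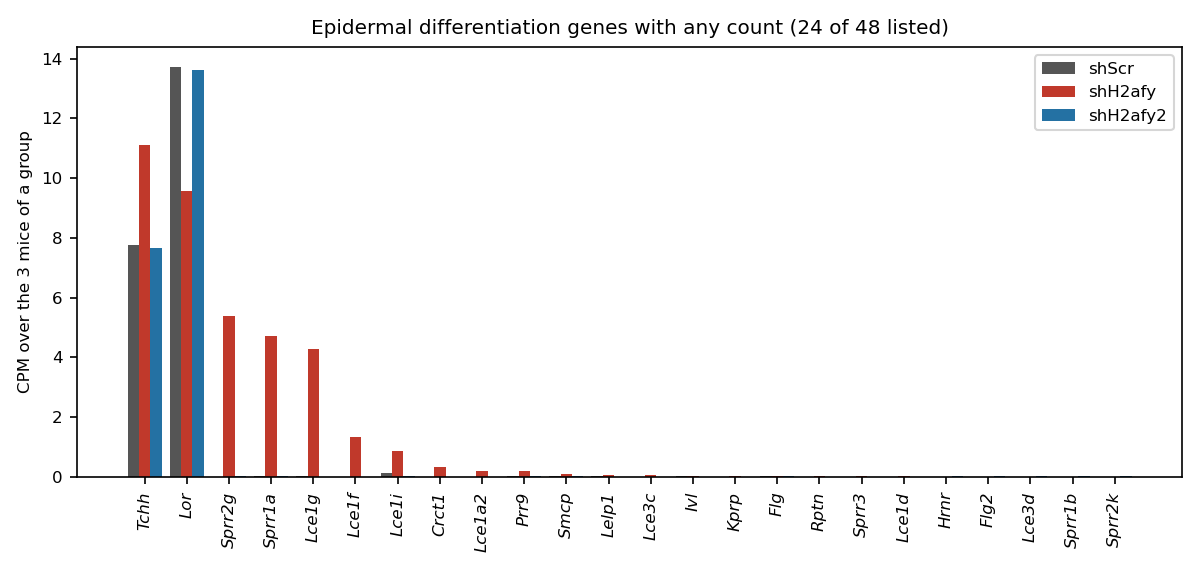
CPM over the 3 mice of a group in the depletion experiment for the 24 of 48 listed epidermal differentiation genes that had any count, with shScr in grey, shH2afy in red and shH2afy2 in blue. Lor and Tchh were read in all groups, while Sprr2g, Sprr1a and Lce1g had at most 0.0397 CPM with the other viruses and Lce1f had none.

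Markers of keratinocytes themselves, the cells that make this envelope, were read at similar sums in the groups. Of 19 listed, 9 were tested and 0 were called in either direction, with summed levels of 30.3, 42.9 and 52.7 CPM in shScr and 44.0, 42.1 and 35.6 CPM in shH2afy mice. Over the group, 10 of the 19 had 10 or more counts in shScr and 11 in shH2afy mice. Others, named after their values were seen, were at or near 0 in both groups. The basal keratins Krt5 and Krt14 had 2 and 0 counts over the shScr group and 3 and 6 over the shH2afy group, Krt6a had 0 in both, and Krt16 had 1 in both. The desmosomal cadherin Dsg3 had 2 counts against 6. The part of keratinocytes in the levels of the members was not tested. In the training experiment, 3 of 10 markers tested (Cdh1, Grhl3 and Epcam, adhesion and epithelial genes) were higher in untrained and 1 in trained mice labelled shH2afy. Of all genes tested, 25.2% and 22.8% were higher there, and nothing is read from these counts.

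Lists around the other members are given beside the 10.5% of all tested genes that were called higher and the 1.2% called lower. Where a list holds a member, its count and median include that member, which this contrast chose. Of 4 transglutaminases tested, Tgm1 and the widely expressed Tgm2 (log2 fold change 2.42, SE 0.357) were higher, and F13a1 (1.83, SE 0.465, adjusted p = 0.0213 in edgeR) and Tgm4 (-0.92) were not called. Of 10 S100 genes, calcium-binding proteins whose genes lie partly beside the envelope genes, 6 were higher, with S100a11 at 4.14 and S100a6 at 2.69. Of 25 nerve injury and regeneration genes, 9 were higher and 2 lower. The whole list summed to 2180 to 2400 CPM with shH2afy and to 2140 to 2600 CPM in shScr mice. Besides Sprr1a, the injury transcription factor Atf3 went from 1.02 CPM ± 0.353 to 44.3 ± 9.34 (SD, n = 3 each; log2 fold change 5.45, SE 0.27), and Socs3 and Csf1 changed by 5.37 and 2.42. Of 17 matrix metalloproteases and their inhibitors, 6 were higher, among them the inhibitor Timp1 (8.13, SE 0.538), Mmp2 (3.50), Mmp19 (2.45) and Mmp14 (2.30).

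Around H19, Mylk2 and Pou4f3, 2 or 3 listed genes were higher, the member among them each time. The members were chosen by this contrast, 10.5% of all genes tested were higher, and nothing is read from these counts. Of 20 imprinted genes tested, H19, the retrotransposon-derived Peg10 (log2 fold change 1.39) and Zim1 (1.69) were higher and none was lower, and Rian, at 503 CPM ± 54.7 in shScr and 337 ± 37.9 with shH2afy (SD, n = 3 each), was not called (adjusted p = 0.0303 in edgeR). Of 12 myosin light chain kinase and muscle genes, Mylk2 and the fast troponin Tnni2 (3.04, SE 0.451) were higher. Of 8 POU4 and hair cell genes, Pou4f3 and its relative Pou4f1 (3.23, SE 0.656) were higher and the actin bundler Espn (-1.05, SE 0.188) lower. The median log2 fold change was 2.13 over the transglutaminases tested, 1.91 over the S100 genes, 0.86 over the nerve injury genes, 0.63 over the metalloproteases and inhibitors, 0.51 over the muscle genes, -0.09 over the POU4 and hair cell genes and -0.22 over the imprinted genes, beside 0.01 over all genes tested. Of other cell types, 2 of 7 T and NK cell genes and 4 of 14 fibroblast and meningeal genes tested were higher, 0 of 10 choroid plexus genes were called, and 6 of 14 genes of inhibitory neurons were lower.

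Most of the genes next to the members, other than Pou4f3, had too few counts to be tested. Sprr3 and Sprr4 beside Sprr1a, Sprr2f and Sprr2h beside Sprr2g, Gm38119 and Lce1h beside Lce1g, and Mmp1b and Mmp10 beside Mmp3 each had 0 or 1 counts over the shScr group and over the shH2afy group. Igf2, the imprinted growth factor that shares an enhancer region with H19, stood at 0.929 CPM ± 0.332 in shScr and 1.08 ± 0.893 with shH2afy (SD, n = 3 each; log2 fold change 0.26, SE 0.604), and was not called. Tinf2 (0.51) and Rabggta (-0.33) beside Tgm1 and Mrpl23 beside H19 were also not called. Of the neighbours tested, only Tpx2 was called higher, beside 10.5% of all genes tested. Tpx2, a mitotic spindle gene that ends 16031 bp from Mylk2, rose from 2.39 CPM ± 0.748 to 10.7 ± 2.6 (SD, n = 3 each; log2 fold change 2.23, SE 0.305, adjusted p = 0.00181 in edgeR). Foxs1 on the other side of Mylk2 had 6 counts against 31 and was too low to be tested.

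In the training experiment, 6 of the 8 members had a row, and Sprr2g and H19 were not analysed here. Sprr1a had no count in untrained shScr mice and 67, 86 and 85 in untrained mice labelled shH2afy, at least 68.0-fold above the floor. In trained mice it had 1, 0 and 0 counts against 48, 23 and 113. Lce1g had 0, 0 and 1 counts against 164, 94 and 122 in untrained mice, and 0, 0 and 0 against 57, 44 and 194 in trained mice. In both genes the trained mice labelled shH2afy spread more widely than the untrained ones, with a coefficient of variation of 75.6% against 11.2% for Sprr1a and 84.5% against 30.5% for Lce1g. Both had their lowest value in replicate 2 and their highest in replicate 3.

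Tgm1 had 36, 48 and 55 counts in untrained shScr mice and 1666, 1466 and 1704 in those labelled shH2afy, a ratio of 29.8 (25.2 to 35.6). In trained mice it had 40, 279 and 94 counts against 1089, 1705 and 1896, a ratio of 9.8 (8.86 to 10.9), which includes a high shScr library described below. The fitted log2 fold change was 3.33 with and 4.29 without that library. Mylk2 had 3, 1 and 6 against 233, 260 and 175 in untrained mice, and 2, 6 and 6 against 87, 243 and 190 in trained mice. In neither gene did the viruses overlap within a training state. Mmp3 had 0, 0 and 1 against 36, 38 and 87, and in trained mice 0, 2 and 0 against 95, 107 and 76. Pou4f3 had no count in any of the 6 shScr mice and 22, 61 and 67 in untrained and 32, 48 and 75 in trained mice labelled shH2afy. For each of the 6 genes, every library labelled shH2afy lay above every shScr library of the same training state. All 6 met the threshold there (adjusted p under 0.05 and fold above 1.2), where 25.2% of the genes tested in untrained and 22.8% of those in trained mice were called higher. Since the rule names these contrasts too, nothing is read from that count. Reactive astrocyte genes summed to 1850 to 2220 CPM in untrained mice labelled shH2afy against 346 to 446 in shScr, and CA1 neuron genes to 2320 to 3070 against 5020 to 5680. Their part in the levels of the 6 genes was not tested.

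The same lists were counted in the training experiment, where 25.2% of all tested genes were higher and 18.5% lower in untrained mice labelled shH2afy, and 22.8% and 18.4% in trained ones. Of 46 epidermal differentiation genes in the table, 6 were tested and 4 were higher in untrained and in trained mice labelled shH2afy. That list holds Sprr1a and Lce1g, which the rule chose, and nothing is read from its count. Lce1f had 0 counts in untrained shScr mice and 85 in those labelled shH2afy, Lce1i 1 and 87, Lelp1 3 and 44, Prr9 0 and 31, Crct1 0 and 28, and Lce1a2 0 and 29. Lor had 142 counts against 106. Of 27 nerve injury genes, 15 were higher and 3 lower in untrained mice, and 13 and 1 in trained mice. The whole nerve injury list summed to 1360 to 1460 CPM in untrained mice labelled shH2afy against 1500 to 1600 in shScr. In trained mice it summed to 1380 to 1630 against 1630 to 1710 CPM. Of 8 transglutaminases, 5 were higher and 1 lower in untrained mice, and 4 and 1 in trained mice. Of the metalloproteases and inhibitors, 12 of 21 tested were higher and 2 lower in untrained mice, of the muscle genes 4 of 15 were higher, of the POU4 and hair cell genes 4 of 12 were higher and 1 lower, and of the imprinted genes 2 of 16 were higher and 4 lower. The counts of the muscle and imprinted genes lay near or below the shares of all genes, and nothing is read from them.

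Depletion of the other variant left the 8 genes near 0. With shH2afy2, Sprr1a had 0, 0 and 1 counts, Sprr2g 0, 0 and 2, and Lce1g none. Mylk2 had 0, 2 and 0 counts, H19 0, 3 and 0, and Mmp3 and Pou4f3 0, 1 and 0 each. Against shScr these 7 were at or under 3 counts over both groups, which gives a level of up to 0.0749 CPM in shScr, and no fold was computed. Tgm1 had 5, 15 and 8 counts (0.347, 0.805 and 0.462 CPM), overlapping the shScr mice, with a ratio of 1.49 and a counting interval of 0.767 to 2.99. None of the 8 passed the filter for the test, in which 0% of 15609 genes were called with shH2afy2 by edgeR, with 3238 at an unadjusted p under 0.05 and 122 called by DESeq2. H2afy2, the target, was 13.2, 8.21 and 7.74 CPM against 18.2, 19.0 and 18.2 in shScr, while H2afy was 72.1, 66.3 and 67.5 against 60.6, 59.2 and 50.6. Replicate 2 with shH2afy2 had the highest Tgm1, Mylk2 and H19 counts of its group and stood apart in microglial genes, at 1780 CPM against 540 and 524, and in B and plasma cell genes, at 420 CPM against 19.5 and 12.7. The part of those cells in its counts was not tested.

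No difference between trained and untrained mice passed the test for a member. In shScr mice only Tgm1 was high enough to be tested. It stood at 0.431, 0.613 and 0.682 CPM in untrained and 0.53, 3.32 and 1.19 CPM in trained mice, with a log2 difference of 1.55 (SE 0.636, adjusted p = 0.545 in edgeR over all genes). Without trained replicate 2, the highest of them, it was 0.575 (SE 0.379, adjusted p = 0.582 in edgeR). That library also held 667 CPM of reactive astrocyte genes where the others had 320 and 431, 711 CPM of microglial genes against 299 and 461, and 77.4 CPM of B and plasma cell genes against 8.37 and 5.55, and the part of these in its Tgm1 level was not tested. In mice labelled shH2afy, all 6 genes were tested and 0 were called, where 0% of 15866 genes were called. Mmp3 had the largest difference, from 0.397, 0.409 and 0.879 CPM in untrained to 1.08, 1.11 and 0.828 CPM in trained mice (log2 difference 0.84, SE 0.34, adjusted p = 0.998 in edgeR), and the groups overlapped. The log2 differences of Sprr1a (-0.32, SE 0.522), Lce1g (-0.33, SE 0.571), Mylk2 (-0.35, SE 0.361), Tgm1 (-0.01, SE 0.186) and Pou4f3 (0.10, SE 0.457) were smaller than or near their errors. At an unadjusted p under 0.05, edgeR had 1382 of all genes in shScr (Tgm1 among them) and 613 in shH2afy mice (Mmp3 among them). By DESeq2, 212 and 47 of all genes were called and none of the members.

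The interaction, which asks whether training moved a gene differently with the 2 viruses, was not called for any of the 6 or for any of 15997 genes (0%), with 333 at an unadjusted p under 0.05 in edgeR and 0 called by DESeq2. Tgm1 was the member with an unadjusted p under 0.05, at a log2 difference of -1.58 (SE 0.675, adjusted p = 1 in edgeR), or -0.607 without shScr trained replicate 2. In intact mice the members were near 0 with and without training. Sprr1a, Lce1g and Mmp3 had no count in any of the 5 libraries, Sprr2g had 0, 2 and 1 in untrained and 1 and 1 in trained mice, and Mylk2 had 1 count over all 5. Tgm1 had 1, 3 and 1 against 3 and 2 counts, H19 5, 8 and 0 against 3 and 2, and Pou4f3 1 count over all 5. None passed the filter in that comparison, in which 0.0962% of 15591 genes were called by edgeR, with 3116 at an unadjusted p under 0.05 and 471 called by DESeq2. Over the 3 untrained libraries, a count of 0 allows a level of up to 0.019 CPM, from counting error alone.

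Correlations were read across the 9 libraries labelled shH2afy, of the depletion and training experiments together. Sprr2g and H19 were not included. No error was computed for the correlations, and counts as low as 21 for Mmp3 and 22 for Pou4f3 add counting noise. After each value was taken as its deviation from the mean of its own group of 3, the 15 pairs among the 6 genes measured in both experiments had Pearson correlations from -0.52 to 0.69, with a median of 0.03. The highest were Sprr1a with Lce1g (0.69), Sprr1a with Pou4f3 (0.65) and Lce1g with Tgm1 (0.63). Of 13332 genes searched, those most like Sprr1a were Zfp449, Ercc5 and Ptcd3 (0.975 to 0.957), those most like Lce1g were Morf4l2, Pop7 and Hars (0.975 to 0.969), and those most like Tgm1 were Zbtb8b, Slc4a11 and Rhbdf1 (0.983 to 0.953). For Mylk2 they were Caln1, Sgtb and St8sia3 (0.965 to 0.962), for Mmp3 Ankub1, Fgf18 and Asna1 (0.964 to 0.953), and for Pou4f3 Ibtk, Lrrc40 and Taf2 (0.972 to 0.969). With 9 points that share libraries and so many genes searched, these values describe the libraries only.

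Whether silent genes lay under macroH2A domains was read at a window of 2 kb either side of each start, in mice without virus. A domain here is a broad stretch that the caller found enriched over input at an FDR under 0.05, and the lists held 51899 to 95952 domains each. The methods of the study give an mH2A1 antibody from Abcam at 30 min and from Thermo Fisher at 1 h and 6 h, while the labels name Abcam throughout. The members fell into 2 sets. A domain met the window in 29 of 30 lists for Mylk2, 28 each for H19, Tgm1 and Pou4f3, and 24 for Sprr1a, and in 5 for Lce1g, 2 for Sprr2g and 1 for Mmp3. The median over 21938 protein-coding genes was 8 lists with a domain in the window. The start itself lay inside a domain in 29 lists for Mylk2, 26 for H19, 24 for Pou4f3, 22 for Tgm1 and 21 for Sprr1a. It did so in 4 lists for Lce1g and 1 each for Sprr2g and Mmp3. For mH2A1 at 30 min, the Sprr1a start lay inside a domain in 0 of 3 untrained lists. In a check added after the data were seen, the 2 lists of untrained mice at 1 h were left out whose titles say mH2A1 and whose antibody label says macroH2A2. Of the 28 lists that remained, Mylk2 had a domain in 27, H19, Tgm1 and Pou4f3 in 26 each, Sprr1a in 22, Lce1g in 5, Sprr2g in 2 and Mmp3 in 1.

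**Figure D3:**
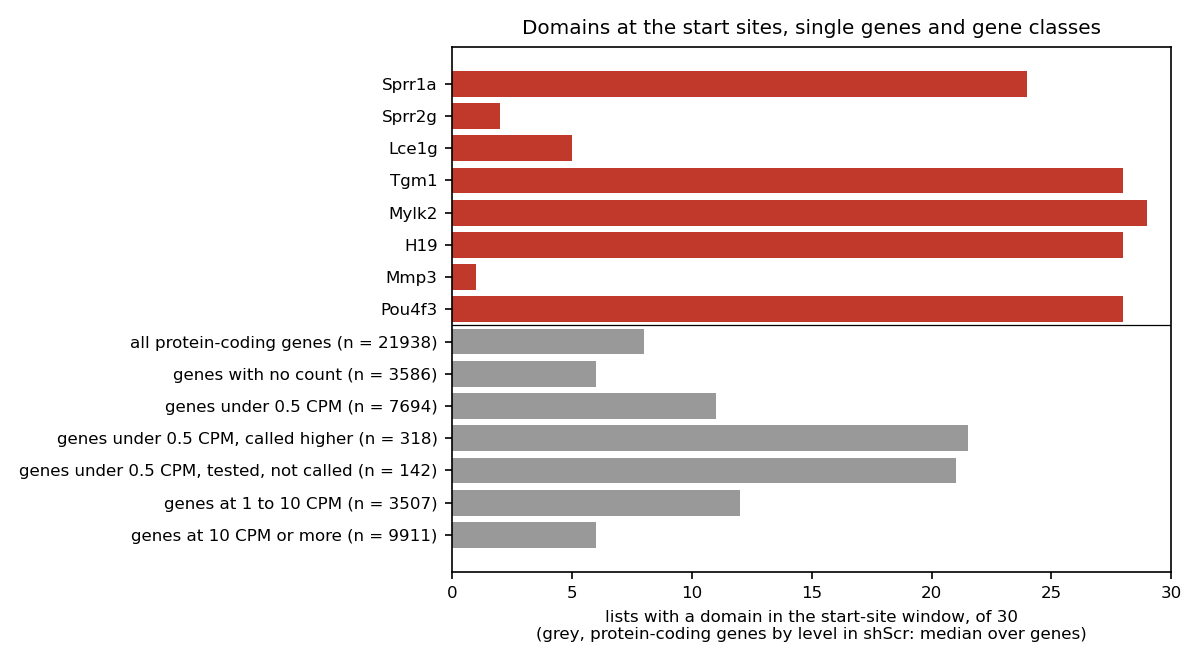
Number of the 30 domain lists with a domain within 2 kb of the start, for each gene (red) and as the median over classes of protein-coding genes by their shScr level (grey, number of genes in brackets). Mylk2, H19, Tgm1, Pou4f3 and Sprr1a have 24 to 29 lists, Lce1g, Sprr2g and Mmp3 have 1 to 5, and the class medians run from 6 to 21.5.

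By the rule of at least 2 untrained libraries, Sprr1a, Tgm1, Mylk2, H19 and Pou4f3 had a domain in each of the 5 sets of mice and antibodies, and Sprr2g, Lce1g and Mmp3 in none. The share of all protein-coding genes under that rule was 32.7% for mH2A1 and 35.3% for mH2A2 at 30 min, 24.9% and 41.8% at 1 h, and 42.5% for mH2A1 at 6 h. For mH2A2 at 1 h the count of 5 rested on single libraries, and fell to 3 without replicate 1 (Tgm1, Mylk2 and H19), to 3 without replicate 2 (Sprr1a, Tgm1 and Pou4f3) and to 1 without replicate 3 (Tgm1). Sprr1a was also the member lost with an FDR under 0.001, for mH2A2 at 30 min (with Pou4f3) and at 1 h and for mH2A1 at 6 h, and for mH2A1 at 30 min when 50% of the window had to be covered or the gene body was read. For mH2A2 at 1 h Sprr1a was covered over 100, 0 and 57.4% of the window, Mylk2 over 0, 100 and 75%, and H19 over 0, 100 and 100%. The medians by shScr level did not run in 1 direction. Of 3586 protein-coding genes with no count in shScr, the median was 6 lists, and of 9911 genes at 10 CPM or more it was also 6, while 7694 genes under 0.5 CPM had a median of 11 and 3507 genes at 1 to 10 CPM a median of 12.

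The classes of near-silent genes that were and were not called higher are set side by side. The 318 protein-coding genes under 0.5 CPM that were called higher with shH2afy had a median of 21.5 lists, and the 142 that were tested and not called had 21. Under the rule of 2 libraries their shares were 63.8% and 64.1% for mH2A1 at 30 min, 56.3% and 50% for mH2A2 at 30 min, 58.5% and 57.7% for mH2A1 at 1 h, 58.5% and 52.8% for mH2A2 at 1 h, and 72.3% and 73.9% at 6 h. These classes were formed with the shH2afy contrast and passed the same filter on low counts, and no test was made between them. A gene this low could pass that filter only through the group in which it was high. The 142 were thus not a class of genes that stayed silent, and nothing is read from the likeness of the 2 classes. Over all 7694 protein-coding genes under 0.5 CPM, whether or not they passed the filter, the shares were 42.9%, 40.4%, 37.1%, 40.4% and 48.1% in the same order.

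Size and strength of the domains differed as well. H19 lay in domains of 14000 to 103600 bp in 15 of 16 untrained lists, with a median of 41000 bp, at the 99.4th percentile of length in their list, and a median log2 of ChIP over input of 0.81. Mylk2 lay in domains of 3800 to 55600 bp (15 lists, median 37400 bp, log2 0.95). These medians pool both variants, and the strength of both genes differed between sets. For mH2A2 at 30 min, Mylk2 was at the 11.4th, 54.2nd and 0.5th percentile of strength and H19 at the 34.4th, 58.5th and 54.3rd. For mH2A1 at 6 h, Mylk2 was at the 97.9th to 99.7th and H19 at the 90.1st to 96.6th. Tgm1 had a domain in each of the 16 untrained lists, of 3600 to 28600 bp with a median of 9300 bp and a log2 of 0.76, at the 82.45th percentile of strength. The domains at Sprr1a were of 2800 to 9200 bp in 14 lists, with a median of 4700 bp, at the 54.95th percentile of length, and a log2 of 0.44, at the 40.25th percentile of strength. Their rank differed between sets. For mH2A1 at 30 min they were at the 80.8th, 68.6th and 79.6th percentile of strength, above Tgm1 at the 43.1st, 36.7th and 58.6th, and for mH2A1 at 6 h at the 3.5th to 41.4th. Over 50 kb either side of the start, domains covered 77.1 to 88.8% at H19 and 53.0 to 66.1% at Mylk2 as means of the 5 untrained sets. At Tgm1 they covered 25.9 to 54.2%, at Pou4f3 25.6 to 85.2%, and at Sprr1a 12.4 to 32.8%. The other 3 genes had 5.8 to 14.1% (Sprr2g), 6.4 to 12.8% (Lce1g) and 13.9 to 19.5% (Mmp3).

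**Figure D4:**
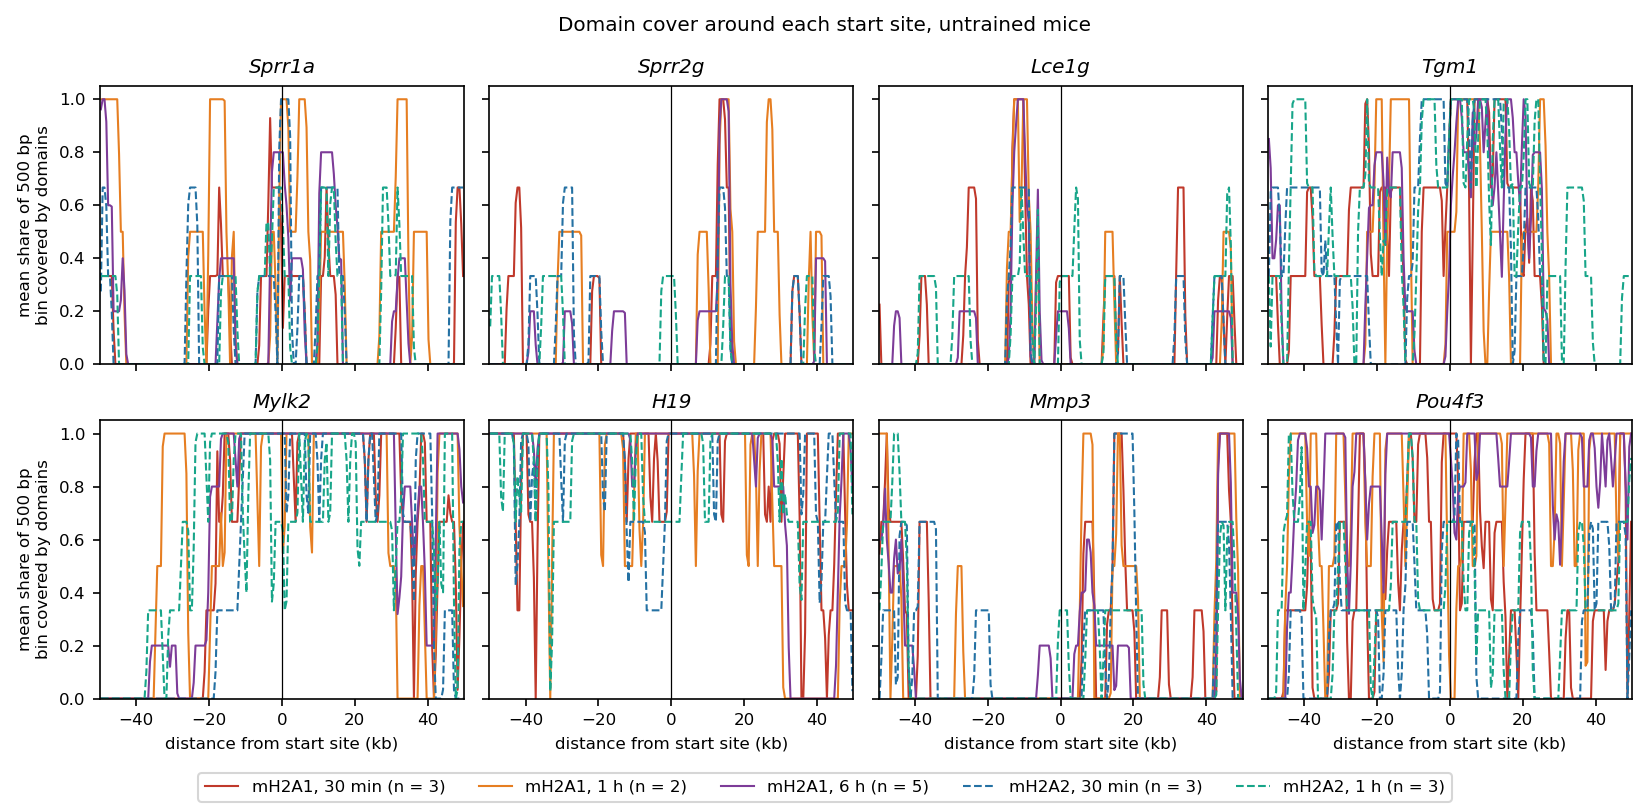
Mean share of each 500 bp bin covered by domains (vertical axis, 0 to 1) against distance from the start in kb, over the libraries of untrained mice, 1 line for each antibody and time (n in the legend). Mylk2 and H19 lie in wide covered stretches, and Tgm1 is covered at or near its start. Sprr1a has a narrow peak at or near its start, and Sprr2g, Lce1g and Mmp3 have peaks away from theirs.

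For the 3 genes without a start-site domain, the distance to the nearest one was measured, with no value over all genes beside it. Where the window was empty, the nearest domain was at a median of 6263 bp from the Lce1g start (3538 to 71063 bp over 25 lists), 12686 bp from that of Sprr2g (6686 to 79686 bp, 28 lists) and 7579 bp from that of Mmp3 (2622 to 55822 bp, 29 lists). Mmp3 had a domain within its gene body in 17 of 30 lists, which covered up to 64.8% of it, and Lce1g and Sprr2g in 5 and 1. Among neighbours with 0 or 1 counts, the start-site window held a domain in 27 lists for Lce1h, 24 for Sprr2h and 20 for Mmp1b. The others had fewer, with 13 lists for Sprr4, 12 for Mmp10, 7 each for Sprr3 and Gm38119 and 0 for Sprr2f. The stretch of Sprr and Lce genes as a whole (chr3:92215799-93019060, 38 annotated genes) was covered over 4.9 to 18.9% in the 30 lists.

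Training was compared at 6 h, the only set of domain lists in which an exact permutation test over samples (two-sided, 5 against 5, smallest p 0.00794) could pass 0.05 for a single gene. The share of the Sprr1a window covered was 0, 100, 100, 92.4 and 67.4% in untrained and 0, 67.4, 97.4, 87.4 and 0% in trained mice, 71.9% ± 42.4 against 50.4% ± 47.3 (SD, n = 5 each; exact p = 0.381). That of Tgm1 was 51.9, 31.9, 6.9, 56.9 and 76.9% against 56.9, 46.9, 51.9, 76.9 and 66.9%, 15.0 points higher after training (exact p = 0.349). The groups overlapped for both genes, and both directions turned with the settings, to 31.9 points higher after training for Sprr1a with an FDR under 0.001 (exact p = 0.405) and -3.3 points for Tgm1 over the gene body (exact p = 0.698). That of Pou4f3 was 86.6% ± 19.6 against 79.0% ± 11.9 (SD, n = 5 each; exact p = 0.397). Mylk2 and H19 were covered in full and Sprr2g and Mmp3 not at all in all 10 libraries, and Lce1g was covered in 1 untrained library (exact p = 1). All adjusted p were 1 over 21940 genes, of which 0% were called and 270 had an unadjusted p under 0.05. With a smallest possible p of 0.00794, adjustment over that many genes could pass a gene only if very many shared that p. The 0% called was thus close to fixed in advance, and nothing is read from it. With 5 mice in each group and shares that ran from 0 to 100% within a group, differences of the size seen at Sprr1a were not detectable.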

How the data were processed

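RNA was measured in 26 libraries and mH2A chromatin in 55 ChIP and input libraries of mouse CA1. The authors aligned RNA reads to mm10 with STAR and counted them with featureCounts, and the deposited RNA values are raw counts per gene. Libraries of the training experiment were depleted of ribosomal RNA and the authors' counts there span whole transcripts, so introns weigh on them. The authors called broad domains in each ChIP library against its input after alignment with Bowtie2, the methods naming epic2 and the submitters' processing notes SICER. In the deposited domain lists, ChIP and input counts are reads inside a domain, the log2 value is that of ChIP over input scaled by the caller, and the p-value and FDR (under 0.05) are the caller's. The submitters' notes name DESeq2 1.22.2 and DiffBind 2.10.0. The deposited files used here hold no columns of the authors' own comparisons.

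Counts were scaled by TMM and filtered with filterByExpr (least count 10, least total 15), and each pair of groups was fitted alone with the quasi-likelihood test of edgeR 4.0.16 (R 4.3.3, limma 3.58.1) and Benjamini-Hochberg adjustment over all genes tested, at an adjusted p under 0.01 with a fold above 2 for depletion, 0.05 with a fold above 1.2 for training with virus, 0.05 for the interaction and 0.01 for intact mice. DESeq2 1.42.0, other size factors, no filter, a replicate block and leaving out each library were alternatives. CPM use the scaled library sizes. Folds and their 95% exact intervals come from group sums and cover counting error only, and a group with no count was set to a floor of 3 counts. A level of list genes is a sum of CPM. Domains (GRCm38, GENCODE vM21 genes) were handled with pandas 2.3.3, SciPy 1.17.1 and NumPy 2.4.6 under Python 3.11.15, and figures drawn with matplotlib 3.10.9. Rows of the intact table whose gene name had become a date (27 rows, 0.3294% of its counts) were left out. No 2 of the 25 pairs of replicates were identical. Same-numbered replicates were checked for shared deviations, with correlations from -0.283 to 0.516 in 9 pairs of the depletion experiment (2 over 0.1), -0.381 to 0.551 in 18 pairs of the training experiment (8 over 0.1) and -0.233 and -0.138 in intact mice, so the numbers were not taken to pair the mice. The exception was shScr mice with and without training, whose 3 pairs were all over 0.1 (0.171, 0.193 and 0.259). The edgeR and permutation scripts were tested on simulated data.

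The members and the gene lists were chosen with earlier results of these data known. Named besides the members are up to 4 genes with the smallest adjusted p in a list described and the nearest protein-coding gene on each side. Also named are the 3 genes with the highest Pearson correlation over the 9 libraries labelled shH2afy. In the list of epidermal differentiation genes, and for keratinocyte markers, further genes were named after their values were seen. The genes next to Pou4f3 are not reported here.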

Additional observations from a re-analysis of the deposited data

Results flagged for a closer look

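Of the domain values at 6 h, 2 stood apart from the rest of their group of 5 by Dixon's test at 95%. The start-site window of Lce1g was covered over 81.6% in replicate 3 of the untrained mice at 6 h and over 0% in the other 4. The window of Pou4f3 was covered over 100% in replicate 5 of the trained mice at 6 h, where the other 4 had 70 to 75%. Dixon's test assumes normally distributed values, whereas these shares are bounded at 0 and 100% and often tied. With 4 equal values, as at Lce1g, any other value is flagged. The rate of flags by chance among the 16 groups looked at is therefore not known, and what set these libraries apart was not tested.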

How the results depend on the processing

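Of 133 alternatives to the counts of members, 128 stayed within 1.5 times the value reported and 5 did not. All 5 were among the counts of start-site domains. The others include the shH2afy contrasts that chose the members, comparisons in which no member was called, and the 6 h test. Most of these could hardly move, so the 128 do not measure how firm the counts are. For mH2A2 at 30 min, 3 members had a start-site domain with an FDR under 0.001 (not Sprr1a or Pou4f3), and for mH2A1 at 1 h, 3 had at least 50% of the window covered (not Tgm1 or Pou4f3). For mH2A2 at 1 h, leaving out each untrained library gave 1 to 3 members. At 1 h for mH2A1, leaving out 1 of 2 libraries gives no value under the rule of 2 libraries. With the gene body in place of the window, Mmp3 was counted for mH2A1 at 30 min (where Sprr1a was lost), 1 h (where Pou4f3 was lost) and 6 h and for mH2A2 at 1 h.

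Of 478 alternatives to single values, 421 kept their direction and side of the threshold without a move in size, 37 moved in size only, and 20 changed sign, none of them in a called value. After training in mice labelled shH2afy, the fits that left out 1 library ranged from -1.292 to 0.028 for Lce1g, -1.108 to 0.074 for Sprr1a, -0.28 to 0.333 for Pou4f3 and -0.183 to 0.175 for Tgm1. In the interaction they ranged from -1.935 to 2.786 for Mmp3, -0.282 to 0.314 for Pou4f3 and -0.332 to 2.09 for Lce1g, and DESeq2 gave -0.077 for Mmp3. At 6 h, the difference in covered share after training was 31.9 points for Sprr1a with an FDR under 0.001, -3.3 for Tgm1 over the gene body and 2 for Pou4f3 with 5 kb either side of the start, against -21.5, 15.0 and -7.6.

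With the replicate block, 7 of 8 members were called with shH2afy (Mmp3 was not), 6 of 6 in untrained and in trained mice, and 0 in every other comparison (Tgm1 in shScr mice after training, 1.23, adjusted p = 0.553 in edgeR), with 1146, 6437 and 4909 genes called in all. The exact test at 6 h within the replicate block has a smallest p of 0.0625 and could not pass. Over all genes, counts that differed by more than 1.5 times were, for shH2afy2, 0 by edgeR against 122 by DESeq2 and 327 without the filter, for training 0 against 212 (shScr) and 47 (shH2afy) by DESeq2, for intact mice 15 against 471 by DESeq2, 51 without the filter, 0 with the replicate block and 1 to 407 without single libraries, and for shH2afy 1885 against 947 to 2364 without single libraries. No alternative called a member outside the shH2afy contrasts.

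Depth limits the low side. In the depletion experiment 3 counts over the shScr group are 0.0749 CPM, so fold changes of genes with 0 to 2 shScr counts are bounds or wide intervals. Domain lists hold enriched stretches only, and an empty window says nothing of weaker signal. The domains are from mice without virus.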
